A study of Mus musculus with 28 samples.

Results

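Heat shock proteins are molecular chaperones, which hold unfolded proteins until they can fold and pass irreparable ones on for degradation. The HSP70 and HSP90 families do this in the cytosol, J-domain proteins hand unfolded proteins to HSP70 and start its ATPase, and a chaperonin ring with a lid does the same work in mitochondria. Some family members are made at all times, and others are switched on when heat, oxidants or other stress unfold proteins, chiefly through the transcription factor Hsf1. In dendritic cells, which take up antigens and show them to T cells, chaperones also carry peptides and proteins into antigen processing.

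The genes described here are the stress-inducible Hspa1a, Dnajb1, Hsph1 and Hsp90aa1, the constitutive cytosolic Hspa8 and Dnaja1, and the mitochondrial Hspd1 and Hspe1. They were chosen by name: 10 genes were listed, and 8 of them had a probe set that the platform annotation pairs with exactly 1 symbol, out of 19938 genes with such a probe set. Hsp90ab1 and Hsf1 are not analysed here. All 8 were among the 10452 genes tested, those above a log2 level of 5 on at least 3 arrays. For a gene with several probe sets, that of the highest mean was used.

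Transcript levels came from 28 Affymetrix arrays of primary dendritic cells from the spleens of mice 3 months old, made to ask how oxidative stress changes the expression profile of dendritic cells. Cells from C57BL6/J wild-type mice formed 4 groups: angiotensin II (Ang II, a pressor hormone) with hydralazine and hydrochlorothiazide (Hyd/HCTZ, a vasodilator and a diuretic; 6 arrays), Ang II with 2-hydroxybenzylamine (2-HOBA, a scavenger of reactive dicarbonyls; 4 arrays), Ang II alone (4 arrays) and vehicle (7 arrays). Cells from NOX2 knockout mice, which lack the catalytic subunit gp91phox of the phagocyte NADPH oxidase in every cell, formed 2 groups, Ang II (4 arrays) and vehicle (3 arrays). Some knockout titles name Ang I where their descriptions name Ang II, and the descriptions were followed. The design text has the cells treated after isolation, whereas the vehicle samples are titled as sham, and no dose, duration or sort is stated in the sources used here.

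The deposited values are log2 levels, on which a difference of 1 is a 2-fold difference. Levels of different genes cannot be set against each other, because each probe set has its own brightness. A gene was called where limma, fitted to all 28 arrays, gave an adjusted p below 0.05 over all tested genes. Cells were measured in bulk, so a lower level through fewer cells of a type and one through less RNA per cell cannot be told apart.

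The arrays were cut into 3 sets at the largest gaps of the first principal component of 6617 unannotated probe sets. That component held 27.7% of their variance. Set 1 was made up of the 7 knockout arrays with 3 of the vehicle arrays (replicates 1, 2 and 3) and 2 of the Ang II arrays (replicates 1 and 2) of wild-type cells. Vehicle replicate 2 lay apart, at -61.1 with the next array at -35.8, and was joined to set 1 as the nearer set. Set 2 held the remaining wild-type vehicle and Ang II arrays and those with 2-HOBA, and set 3 was exactly the 6 Hyd/HCTZ arrays. Interquartile ranges of the arrays were 1.92 to 2.675 in set 1, 2.605 to 3.029 in set 2 and 3.091 to 3.437 in set 3. The Hyd/HCTZ treatment and array set 3 therefore cannot be told apart. Cybb, which encodes NOX2, was at 6.41 to 7.18 on the knockout arrays and at 8.35 to 9.75 on 20 wild-type arrays. Against its label, Cybb was at 6.34 on the array labelled wild-type vehicle replicate 2. This array also had the narrowest interquartile range, 1.92, and the lowest mean correlation with the other arrays, 0.8523, where no other was below 0.9267. Whether its label or its quality is at fault was not tested, so results of the vehicle comparisons are given with and without this array. All 8 dendritic cell markers looked up (Itgax, Flt3, Zbtb46, Xcr1, Clec9a, Sirpa, Cd83 and Ccr7) had a probe set, with a summed level of 10.39 or more on every array. Xcr1, a marker of type 1 dendritic cells, stayed below 5 on all 4 knockout Ang II arrays. In wild-type cells it was also near 5, with means of 5.05 with Ang II, 5.17 with vehicle and 5.26 with 2-HOBA, but 7.61 with Hyd/HCTZ. B cell markers were also high, with summed levels of 8.70 to 12.34.

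Promoters of the inducible genes are shown because heat shock factors bind inverted repeats of GAA, which was looked for on both strands as GAANNTTC or TTCNNGAA in the 250 bases before each start site. Of 32851 mouse promoters in RefSeq (GRCm38.p6), 12.8% held either motif. Entries were found for 6 of the 8 genes, 11 entries in all since some genes have several start sites, and 6 of the 11 entries held a match. These 6 are not separate sites: both Hsph1 entries hold the same match, and those of Hspd1 and Hspe1 share 1 stretch. Capitals mark the matches below, which are letters in a window and not measured binding sites. The promoters of Hspa1a (chr17:34972157-34972406, minus strand), Dnajb1 (chr8:83607925-83608174, plus strand) and Hsph1 (chr5:149636337-149636586, minus strand) read as follows.
Hspa1a: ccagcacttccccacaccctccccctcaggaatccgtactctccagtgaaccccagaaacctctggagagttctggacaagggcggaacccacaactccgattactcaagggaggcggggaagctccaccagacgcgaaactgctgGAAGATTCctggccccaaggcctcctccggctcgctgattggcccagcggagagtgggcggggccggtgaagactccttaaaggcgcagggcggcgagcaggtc
Dnajb1: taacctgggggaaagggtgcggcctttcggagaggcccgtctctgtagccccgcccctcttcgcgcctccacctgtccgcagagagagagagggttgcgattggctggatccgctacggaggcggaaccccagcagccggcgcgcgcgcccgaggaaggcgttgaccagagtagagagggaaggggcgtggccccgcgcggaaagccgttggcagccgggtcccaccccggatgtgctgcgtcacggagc
Hsph1: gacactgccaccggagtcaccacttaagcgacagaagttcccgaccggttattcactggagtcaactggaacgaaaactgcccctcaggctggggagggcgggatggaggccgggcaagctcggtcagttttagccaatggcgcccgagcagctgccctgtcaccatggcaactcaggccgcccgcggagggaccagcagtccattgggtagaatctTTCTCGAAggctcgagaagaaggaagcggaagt
The match of Hspa1a starts 104 bases before the start site and that of Hsph1 33 bases before it, while the Dnajb1 window held no match.

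Hspd1 and Hspe1 lie head to head on chromosome 1 and are read in opposite directions, so that 1 stretch lies before a start site of both. It held an 18-base run made of 2 overlapping matches to the longer motif GAANNTTCNNGAA, searched on both strands, which 0.466% of all promoters held. The run is printed within 30 bases (chr1:55088053-55088082), for Hspe1 on the plus strand and for Hspd1 on the minus strand.
Hspe1: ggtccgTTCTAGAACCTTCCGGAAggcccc
Hspd1: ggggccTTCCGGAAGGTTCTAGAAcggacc
Dnaja1 held GAANNTTC 124 bases before its first start site. The Dnaja1 gene lies at chr4:40722468-40734965, Hspa8 at chr9:40801276-40805202 and Hsp90aa1 at chr12:110691036-110696395; the last 2 are named only.

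Hspa1a, the stress-inducible HSP70, showed the widest gap of the 8 genes. Its level on the 6 Hyd/HCTZ arrays had a lowest value of 8.49, a median of 9.61 and a highest value of 10.43. With 2-HOBA it was 5.63, 5.34, 5.55 and 5.44, with Ang II in knockout cells 5.22, 5.13, 5.39 and 5.72, and with vehicle in knockout cells 6.40, 5.88 and 5.75. It was 5.31, 6.10, 5.30 and 5.18 with Ang II in wild-type cells, and the 7 wild-type vehicle arrays had a lowest value of 4.25, a median of 4.81 and a highest value of 5.81. Every Hyd/HCTZ array thus stood above all 22 other arrays, the highest of which was a knockout vehicle array at 6.40.

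Dnajb1 encodes an HSP40, the J-domain partner of inducible HSP70. Its level on the Hyd/HCTZ arrays was 7.16 at the lowest, 7.59 at the median and 7.91 at the highest. The other groups were close to one another: 5.52, 5.78, 5.07 and 5.00 with 2-HOBA, 5.02, 4.85, 4.97 and 5.55 with Ang II in knockout cells, 5.61, 5.68 and 5.20 with vehicle in knockout cells, and 5.00, 4.82, 5.03 and 5.27 with Ang II in wild-type cells. Wild-type vehicle arrays ran from 3.80 to 5.53 with a median of 5.33, and the lowest of them was the array labelled replicate 2. Again no other array reached the Hyd/HCTZ arrays.

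Hsp90aa1, the inducible HSP90, had levels of 10.39 at the lowest, 10.50 at the median and 11.01 at the highest on the Hyd/HCTZ arrays. It was 9.78, 9.54, 9.80 and 9.31 with 2-HOBA, 8.89, 9.15, 9.15 and 9.33 with Ang II in knockout cells, 9.47, 9.34 and 8.96 with vehicle in knockout cells, and 8.93, 9.24, 9.75 and 9.83 with Ang II in wild-type cells. The wild-type vehicle arrays had a lowest value of 8.13, a median of 9.64 and a highest value of 10.26. The Hyd/HCTZ arrays stood above all others here too, but with a narrow gap, 10.39 against 10.26. Of all tested genes, 20.2% had every Hyd/HCTZ array above the 22 others, as these 3 of the 8 did.

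Hsph1, an HSP110 that exchanges nucleotide on HSP70, overlapped between groups. Its level on the Hyd/HCTZ arrays had a lowest value of 6.86, a median of 7.56 and a highest value of 8.66. It was 6.91, 6.99, 6.75 and 6.04 with 2-HOBA, 6.88, 6.98, 6.45 and 6.25 with Ang II in wild-type cells, and 5.86 to 7.40 with a median of 6.23 with vehicle in wild-type cells. Knockout arrays lay within this range apart from 1 Ang II array at 5.78. Of the Hyd/HCTZ arrays 4 stood above all others, and 6 of the other arrays reached the lowest of them.

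Hspa8, the constitutive HSP70 that also uncoats clathrin vesicles, varied least. Its level on the Hyd/HCTZ arrays was 11.28 to 11.98 with a median of 11.76. It was 11.51, 11.39, 11.49 and 11.19 with 2-HOBA, 10.80, 10.98, 11.41 and 11.53 with Ang II in wild-type cells, and 10.70 to 11.84 with a median of 11.42 with vehicle in wild-type cells. The knockout arrays had 10.90, 11.05, 11.06 and 11.02 with Ang II and 11.20, 11.01 and 10.97 with vehicle. Only 1 Hyd/HCTZ array exceeded all others, and 9 other arrays reached the lowest of them.

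Dnaja1, a constitutive J-domain partner of HSP70, had levels of 9.14 to 9.97 with a median of 9.42 on the Hyd/HCTZ arrays. It was 8.86, 8.82, 8.77 and 8.62 with 2-HOBA, 8.67, 8.0, 8.78 and 8.56 with Ang II in wild-type cells, and 8.02 to 9.23 with vehicle in wild-type cells. Knockout arrays had 8.64, 8.50, 8.36 and 8.15 with Ang II and 8.70, 8.22 and 8.03 with vehicle. A single vehicle array, replicate 5 at 9.23, reached into the Hyd/HCTZ range.

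The mitochondrial chaperonin ring is encoded by Hspd1 (HSP60). Its level was 8.66 to 9.40 on the Hyd/HCTZ arrays, 8.37, 8.37, 8.49 and 7.73 with 2-HOBA, 8.16, 7.94, 8.29 and 8.40 with Ang II in wild-type cells and 6.76 to 8.96 with vehicle in wild-type cells. Knockout arrays had 7.73, 7.87, 7.85 and 7.90 with Ang II and 7.83, 7.96 and 7.55 with vehicle. The vehicle range was wide, with the array labelled replicate 2 at its bottom, and 3 vehicle arrays reached the lowest Hyd/HCTZ array. Hspe1 (HSP10), the lid of the ring, was at 10.49 to 10.89 on the Hyd/HCTZ arrays, 10.15, 10.14, 10.19 and 10.18 with 2-HOBA, 9.27, 9.32, 10.69 and 10.08 with Ang II and 9.45 to 10.64 with vehicle. Knockout arrays had 9.91, 8.96, 9.78 and 9.76 with Ang II and 9.92, 10.19 and 9.61 with vehicle. Here 2 wild-type arrays, 1 with Ang II and 1 with vehicle, reached the Hyd/HCTZ range.

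The group means of all 8 genes were highest with Hyd/HCTZ. The other 5 group means lay within 0.97 for Hspa1a (5.04 to 6.01), 0.56 for Hspe1 (9.60 to 10.16), 0.48 for Hsp90aa1 (9.13 to 9.61) and 0.25 for Hsph1 (6.43 to 6.67). After Hyd/HCTZ, knockout vehicle cells had the next highest mean for Hspa1a and Dnajb1, and 2-HOBA cells for the other 6 genes. Below Hyd/HCTZ, the arrays of neighbouring groups overlapped in all but 2 cases. Hspa1a on the knockout vehicle arrays (5.75 to 6.40) lay above the 2-HOBA arrays (5.34 to 5.63), which was not tested, and Hspd1 with Ang II lay higher in wild-type than in knockout cells, by an amount that was not called.

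**Figure D1:**
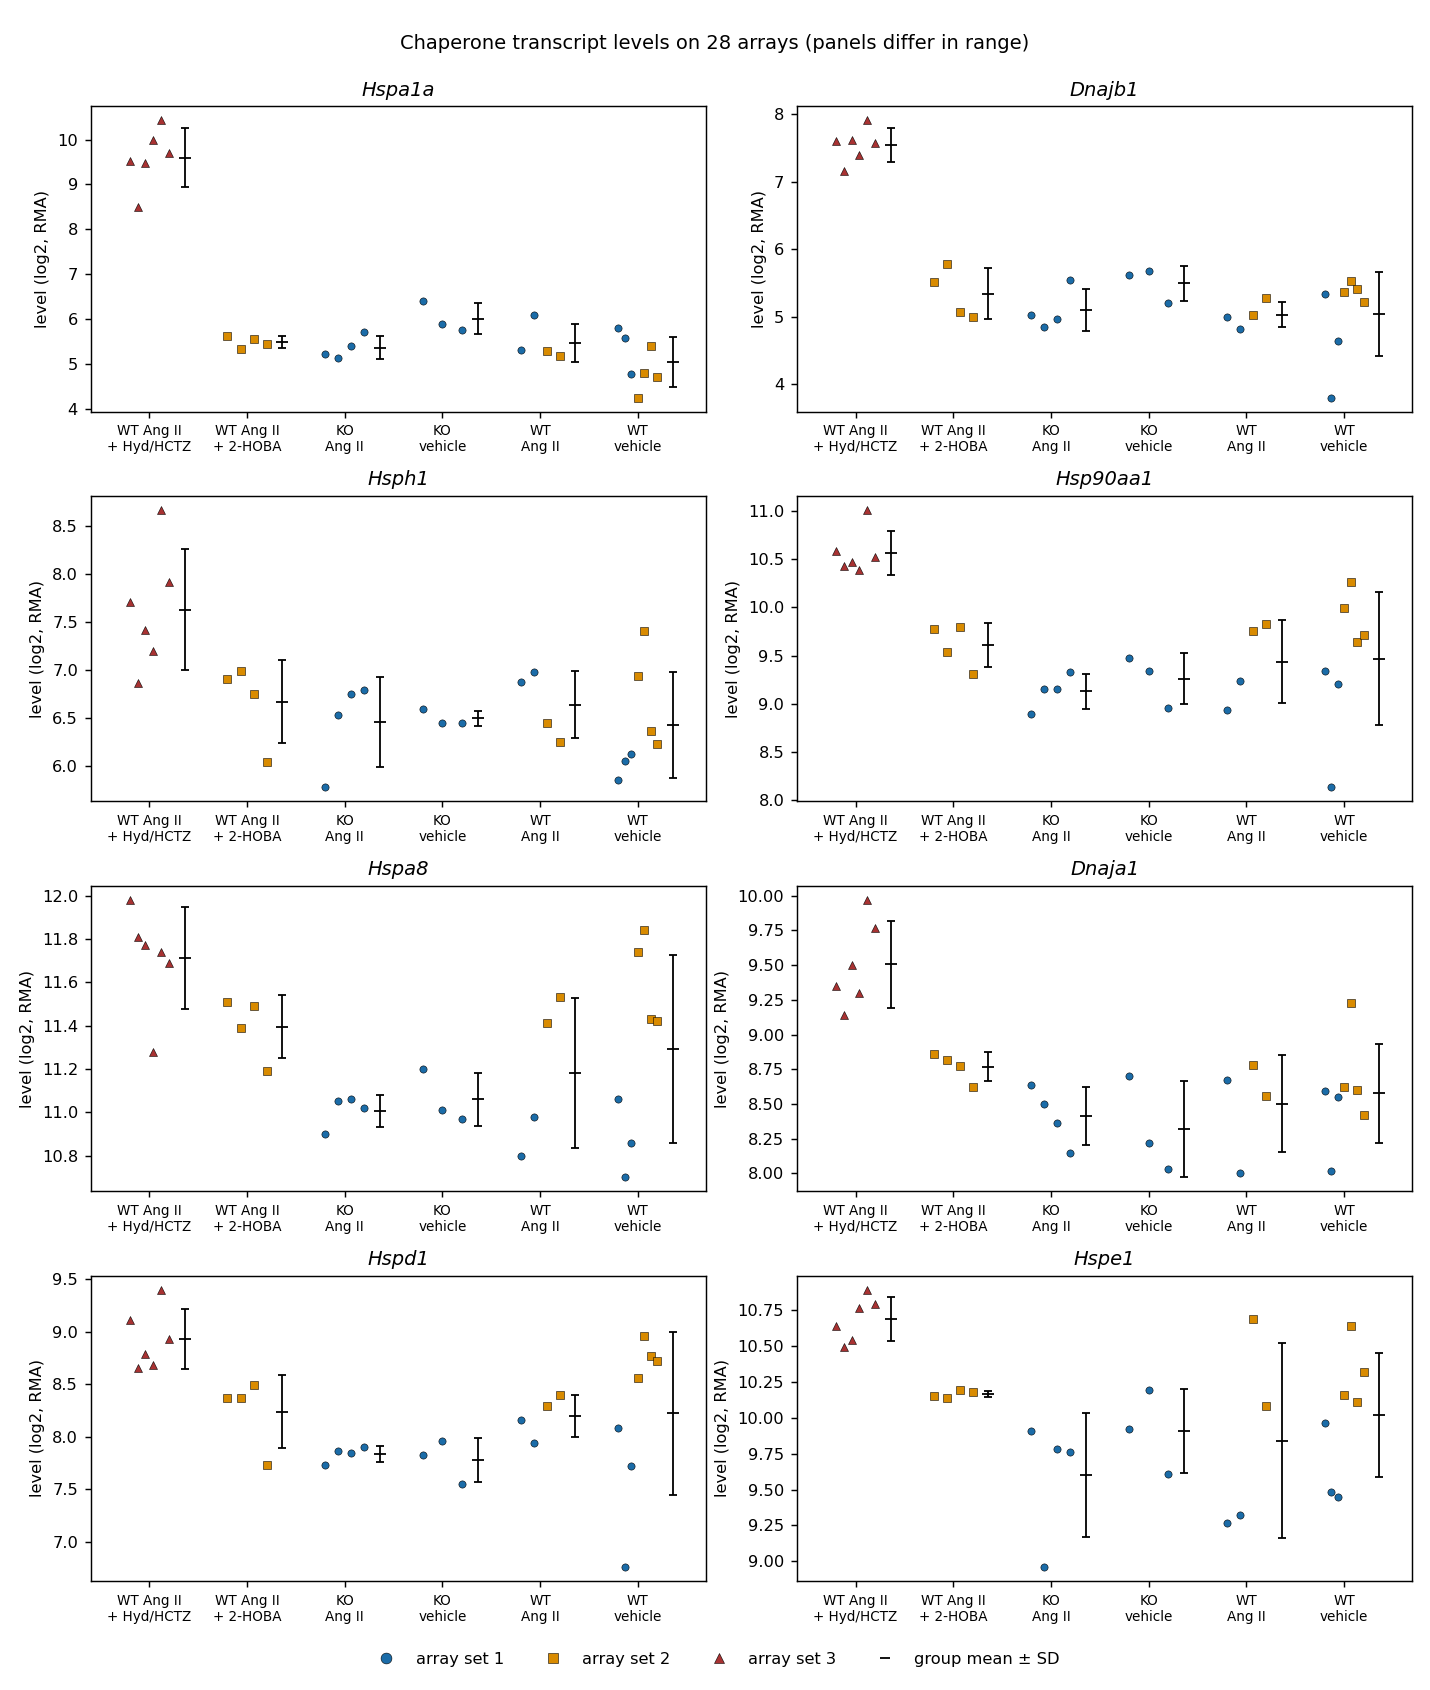
Log2 level (RMA) of each chaperone gene on every array by group, with the array set as the symbol and the group mean ± SD beside the points; each panel has its own range. The Hyd/HCTZ arrays stand above all 22 others for Hspa1a, Dnajb1 and Hsp90aa1, while in the wild-type vehicle and Ang II groups Hspa8 and Hsp90aa1 are lower in set 1 than in set 2.

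Levels of 4 genes followed the array sets inside the wild-type groups. The share of all tested genes that did so was not computed, so this count is not a result about chaperones. For Hspa8, the vehicle arrays of set 1 had 11.06, 10.70 and 10.86 and those of set 2 11.74, 11.84, 11.43 and 11.42. The Ang II arrays split likewise, with 10.80 and 10.98 in set 1 and 11.41 and 11.53 in set 2. Hsp90aa1, Hspd1 and Hspe1 were also lower on every set 1 array than on every set 2 array within both groups. Comparisons whose groups share a set are therefore given within it as well, which is not possible for Hyd/HCTZ.

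Adding Hyd/HCTZ to Ang II in wild-type cells was set against Ang II alone. The inducible HSP70 and its HSP40 rose most, followed by the inducible HSP90 and Dnaja1. All tested genes together lay higher on the Hyd/HCTZ arrays, by a median of 0.32, so each difference is given relative to that shift. Hspa1a averaged 9.60 ± 0.65 with Hyd/HCTZ and 5.47 ± 0.42 with Ang II alone (SD, n = 6 and 4), a relative rise of 3.81 (SE 0.28, limma adjusted p = 1.05e-10) or 14.0-fold (95% interval 9.37 to 20.9). This was the second largest relative rise of the 10452 tested genes. Dnajb1 averaged 7.55 ± 0.25 and 5.03 ± 0.19 and rose 4.58-fold (3.24 to 6.49; adjusted p = 9.25e-08).

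Hsp90aa1 averaged 10.57 ± 0.23 with Hyd/HCTZ and 9.44 ± 0.43 with Ang II alone and rose 1.76-fold relative to the shift (1.22 to 2.55; limma adjusted p = 0.0111). Dnaja1 averaged 9.50 and 8.50 and rose 1.61-fold (1.22 to 2.12; adjusted p = 0.00506). The remaining genes had positive differences that did not pass: Hsph1 0.67 (adjusted p = 0.0597), Hspe1 0.52 (0.0697), Hspd1 0.41 (0.216) and Hspa8 0.21 (0.366; 95% interval -0.18 to 0.60). Thus 4 of 8 genes were called higher, against 23.7% of all tested genes, and 5 of 8 had no overlap between the groups as deposited, against 34.4%. The median relative difference of the 8 genes was 0.68, and that of all tested genes is 0 by construction.

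The count depended on the zero of the test. Tested against 0, all 8 genes were called, with 40.8% of all tested genes called higher, and so were all 8 when genes with low values were kept, which moved the shift to -0.15. With a stricter filter, above a level of 7, the shift was 0.64 and 2 genes were called, Hspa1a and Dnajb1. Both passed that filter only through the Hyd/HCTZ arrays, as no other array exceeded 6.4 for Hspa1a or 5.78 for Dnajb1. Their calls above 7, here and in the other Hyd/HCTZ comparisons, are therefore no separate check. The call of Hsp90aa1 was lost without Ang II replicate 1 (0.67, adjusted p = 0.0584).

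The same Hyd/HCTZ arrays set against vehicle and against 2-HOBA gave similar sizes, and the 3 comparisons share those 6 arrays. Against vehicle the shift was 0.31 and 5 of 8 genes were called higher, with 25.3% of all tested genes called higher. Hspa1a rose 19.0-fold (13.4 to 26.8), Dnajb1 4.57-fold (3.39 to 6.17), Hsph1 1.85-fold (adjusted p = 0.00427), Hsp90aa1 1.73-fold (0.00414) and Dnaja1 1.53-fold (0.00302). With the array labelled wild-type vehicle replicate 2 left out, these 5 relative differences were 4.43, 2.09, 0.93, 0.67 and 0.63, all still called. Only 3 of 8 genes had no overlap with the vehicle arrays, against 25.0% of all genes. Tested against 0 all 8 genes were called, as they were with no filter, and above a level of 7 only Hspa1a and Dnajb1.

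Against 2-HOBA the shift was 0.25 and 4 of 8 genes were called higher, with 23.2% of all tested genes called higher, while 6 of 8 had no overlap, against 35.0%. Hspa1a averaged 9.60 ± 0.65 with Hyd/HCTZ and 5.49 ± 0.13 with 2-HOBA (SD, n = 6 and 4) and rose 14.5-fold, while Dnajb1 rose 3.88-fold. Hsp90aa1 (0.71, adjusted p = 0.0278) and Dnaja1 (0.49, 0.0437) passed narrowly, and Hsph1 (0.70, 0.0522) did not. Dnaja1 was not called after quantile normalization (0.31, 0.160), and with the replicate number as a block only Hspa1a and Dnajb1 were. Hsp90aa1 lost its call without Hyd/HCTZ replicate 5 (0.61, 0.0683) and without 2-HOBA replicates 2 (0.70, 0.0593) or 4 (0.63, 0.0874), and Dnaja1 lost it without any 1 of 7 arrays. With no filter 7 of 8 genes were called, and above a level of 7 only Hspa1a and Dnajb1.

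**Figure D2:**
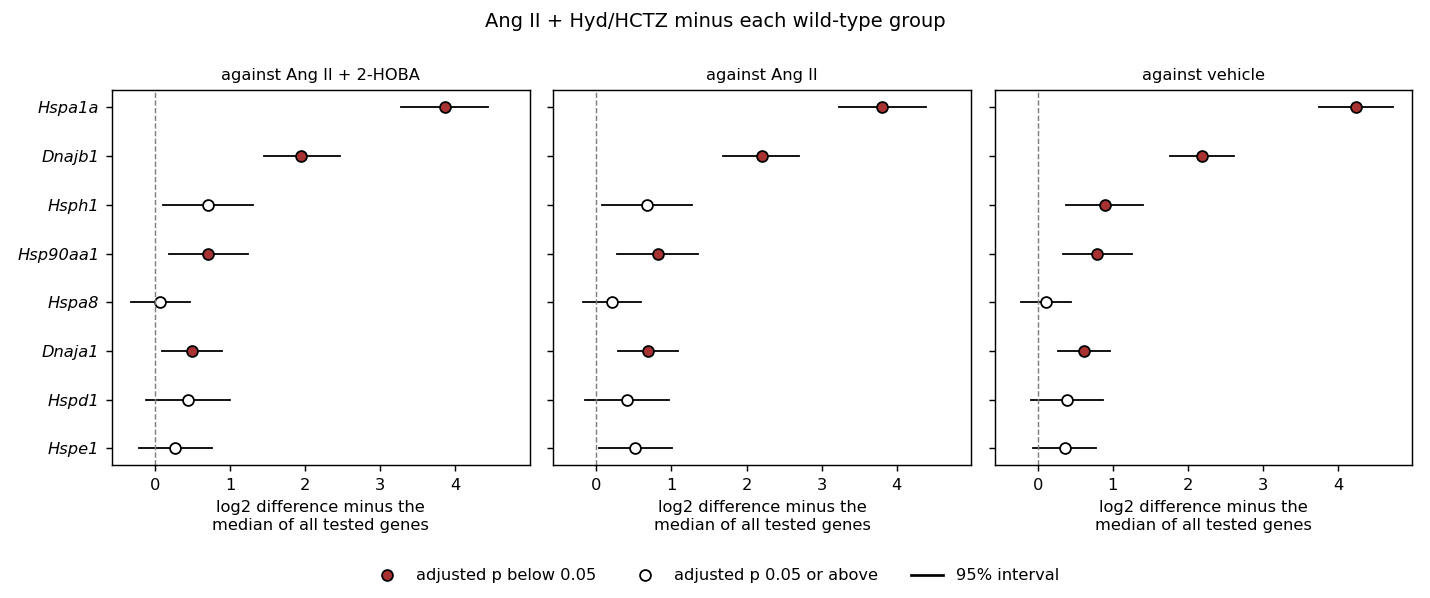
Log2 difference of each gene between Ang II with Hyd/HCTZ and the 3 other wild-type groups, minus the median of all tested genes, with limma's 95% interval; filled points have an adjusted p below 0.05. Hspa1a lies at 3.86, 3.81 and 4.24 and Dnajb1 at 1.95, 2.20 and 2.19, while Hspa8 lies at 0.07, 0.21 and 0.11 with intervals that include 0.

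For 2 genes the probe set used is numbered away from the gene. The probe set used for Dnaja1 is numbered among probe sets of chromosome 5, and that of Hspe1 among probe sets of another chromosome than its own, so each may read a copy elsewhere. With the probe set numbered among neighbours of the gene's own chromosome, Dnaja1 was again called against Ang II (0.90, adjusted p = 0.00413), vehicle (1.15, 7.01e-05) and 2-HOBA (0.86, 0.00647). Hspe1 was then called against Ang II (0.67, adjusted p = 0.0227) and vehicle (0.55, 0.0279), though not against 2-HOBA (0.43, 0.145). The other probe sets of Hsp90aa1 averaged 10.65 and 10.12 with Hyd/HCTZ and 9.43 and 9.15 with Ang II. Those of Hspa8 averaged 11.52 and 11.41 with Hyd/HCTZ and 10.81 and 10.89 with Ang II, where the one used averaged 11.71 and 11.18. The other probe set of Hspd1 averaged 8.99 with Hyd/HCTZ and 8.12 with Ang II, where the one used averaged 8.93 and 8.20. Hspa1a has a near-identical neighbour, Hspa1b, whose transcripts its probe set may also read.

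Inducible and constitutive partners were also compared within each array, where a shift equal for all genes cancels. The shift of Hyd/HCTZ against Ang II was not equal: it was -0.15 with no filter, 0.32 for the tested genes and 0.64 above a level of 7. A part of the shift that depends on level therefore stays in these differences. The size of such a difference reflects the brightness of both probe sets, so only its change between groups is described. Hspa1a minus Hspa8 was -3.32 to -1.30 on the Hyd/HCTZ arrays and -7.49 to -4.80 on the 22 others, with means of -2.11 ± 0.77 and -5.81 ± 0.67. Dnajb1 minus Dnaja1 was -2.18 to -1.75 on the Hyd/HCTZ arrays and -4.22 to -2.54 on the others. These pairs were separated completely, so in the deposited values the inducible gene changed by more than its constitutive relative. Dnaja1 is taken here from the probe set numbered among those of chromosome 5, at 9.50 with Hyd/HCTZ and 8.50 with Ang II. The other Dnaja1 probe set averaged 8.48 and 7.26, and the pair was not computed with it. Hspd1 minus Hspe1, ring and lid, was -2.08 to -1.49 and -2.72 to -1.09 and overlapped throughout.

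**Figure D3:**
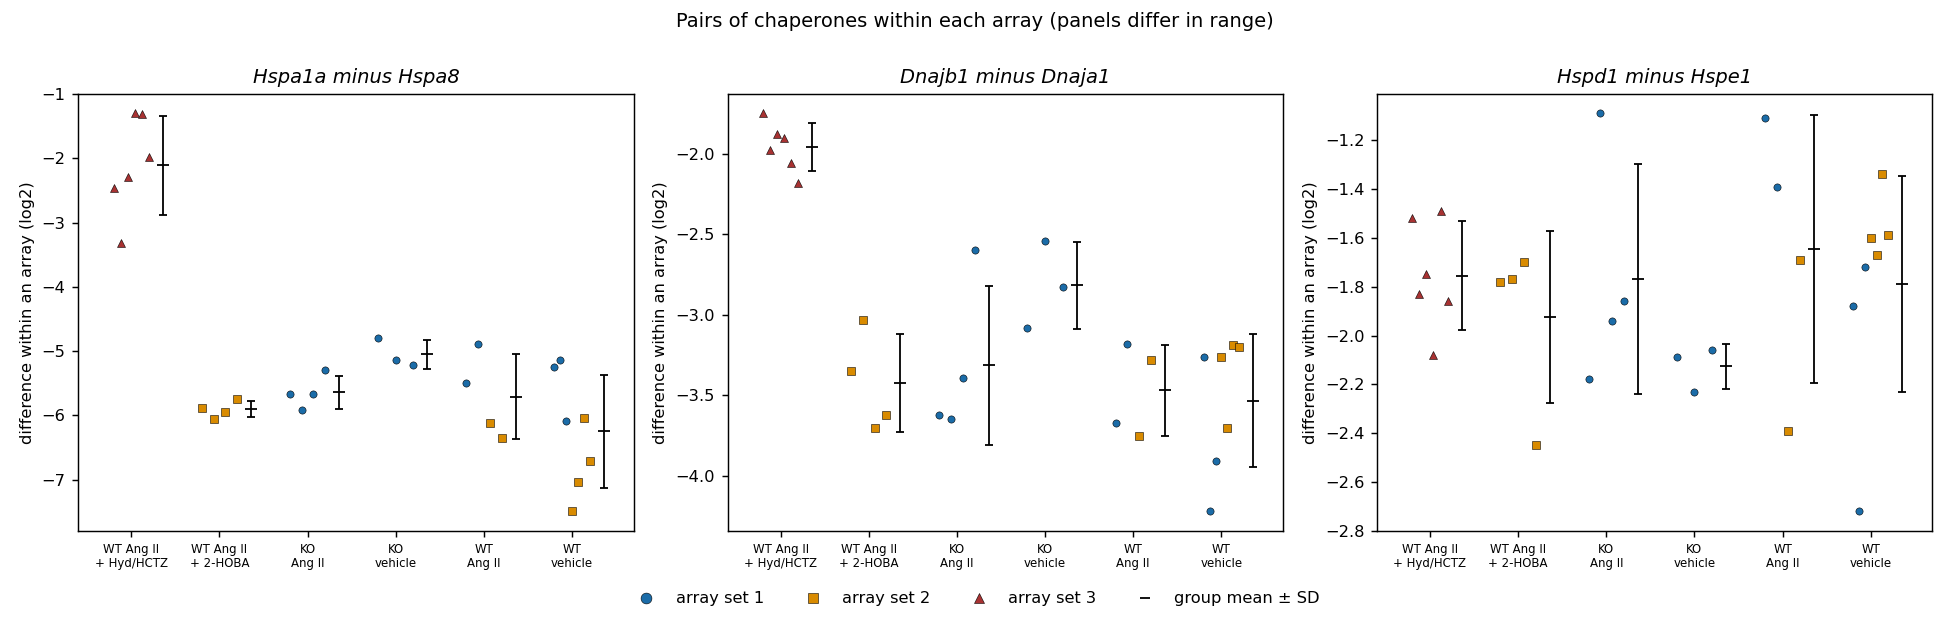
Log2 difference between 2 chaperone genes on the same array, by group, with the array set as the symbol and the group mean ± SD; each panel has its own range. For Hspa1a minus Hspa8 and Dnajb1 minus Dnaja1 all 6 Hyd/HCTZ arrays lie above the 22 others, whereas for Hspd1 minus Hspe1 they lie inside the range of the others.

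Other chaperone families were mixed in the comparison of Hyd/HCTZ with Ang II alone, in which 23.7% of all tested genes were called higher and 25.0% lower relative to the shift. Tested against 0 these shares were 40.8% and 11.9%. Of 19 tested cochaperones of HSP90 and HSP70, 5 were called higher and 0 lower, with a median relative difference of 0.34 against 0.00 for all tested genes, a share of higher calls near that of all genes. Tested against 0, 14 of the 19 were called higher. They include the BAG proteins, nucleotide exchange factors of HSP70: Bag5 rose 2.10-fold (adjusted p = 0.000263), Bag3, itself a heat shock gene, 2.01-fold (0.00120) and Bag1 2.02-fold (0.00505). Among other HSP70 and HSP110 genes 2 of 5 were called higher, the testis-enriched Hspa2 (2.19-fold) and the microsomal Hspa13 (2.23-fold), with a median of 0.04. Their means with Ang II alone, 4.57 and 4.56, lay below the level of 5 used for testing, and with Hyd/HCTZ they were 6.02 and 6.03.

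Other J-domain genes went both ways, with 2 of 14 called higher, 2 lower and a median of -0.10, or 5 higher and 1 lower tested against 0. Dnajb14, of the endoplasmic reticulum membrane, rose 2.30-fold, and Dnajc8, a splicing protein, 1.62-fold. Dnajc13, which acts in endosomal sorting, fell 2.24-fold. Of 3 tested small heat shock proteins 1 was called, Hspb11 (3.30-fold, adjusted p = 4.40e-06), which is a component of intraflagellar transport, and the median was -0.19. The mean of Hspb11 with Ang II alone was 4.90, also below the level of 5 used for testing.

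Of 9 mitochondrial chaperones and proteases 0 were called higher and 2 lower relative to the shift, around a median of 0.16. Tested against 0, 5 were called higher and 0 lower. The 2 genes were the HSP70 exchange factor Grpel2 and the J-domain protein Dnaja3, and both had overlapping groups. Dnaja3 averaged 6.04 ± 0.30 with Hyd/HCTZ and 6.06 ± 0.03 with Ang II alone (SD, n = 6 and 4), so its relative difference of -0.35 is nearly all shift. Of 12 endoplasmic reticulum chaperones 4 were called higher and 1 lower (median 0.39), or 8 and 1 tested against 0. Hspa5, the HSP70 of that compartment, rose 1.92-fold (adjusted p = 0.00352) and Sdf2l1, a cofactor of its J-domain partners, 2.23-fold, while the disulfide isomerase Pdia4 fell 2.52-fold. In the heat shock factor list both tested genes were called higher: Hsbp1, which binds heat shock factor trimers, 1.72-fold (adjusted p = 0.00235), and the factor Hsf2 1.42-fold (0.0497). Hsf2 averaged 4.65 with Ang II alone, below the level of 5 used for testing.

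**Figure D4:**
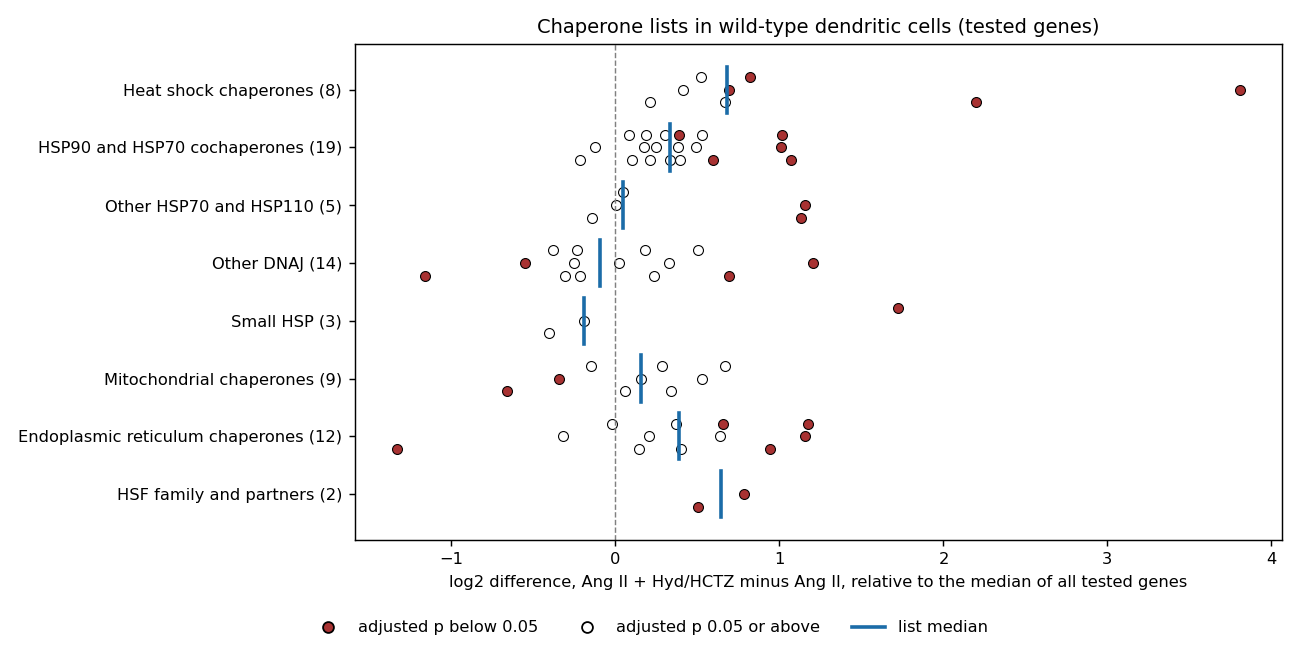
Log2 difference between Ang II with Hyd/HCTZ and Ang II alone, minus the median of all tested genes, for every tested gene of each chaperone list; red points have an adjusted p below 0.05 and blue bars mark list medians. Medians are 0.68 for the 8 heat shock chaperones, 0.34 for the cochaperones and -0.10 for other J-domain genes, and no other list holds a gene as high as Hspa1a or Dnajb1.

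Immediate early genes, which are induced within minutes of many stimuli, were called higher in 7 of 12 cases and lower in 0, with a median relative difference of 1.04, or in 9 of 12 tested against 0. Nr4a1 rose 3.98-fold, Btg2 2.84-fold and Egr1 2.61-fold. Cell type marker counts are read against the same shares of all genes. Dendritic cell markers were called higher in 7 of 8 genes, with summed levels of 12.33 to 12.58 with Hyd/HCTZ and 10.76 to 11.31 with Ang II alone. B cell markers were called lower in 6 of 6 tested genes, with summed levels of 8.70 to 10.03 and 10.86 to 12.08 and none below 5 on all arrays of either group.

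Red pulp macrophage markers were called higher in 4 of 6 genes (summed levels 10.59 to 11.92 with Hyd/HCTZ and 9.46 to 10.58 with Ang II alone). Erythroid markers were called lower in 5 of 5 tested genes (6.45 to 7.05 and 7.62 to 9.19), with Rhd, Epb42 and Hemgn below 5 on all Hyd/HCTZ arrays. Neutrophil markers were called lower in 5 of 6, or 3 tested against 0 (9.84 to 11.37 and 10.35 to 12.67), with Ltf and Mpo below 5 on all Hyd/HCTZ arrays. T and NK cell markers were called lower in 4 and higher in 1 of 6, or 2 and 1 tested against 0 (7.96 to 8.75 and 8.36 to 9.32). The part of any of these in the chaperone differences was not tested.

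Genes with the profile most like a chaperone's were read as a description, by Pearson's r over the 28 arrays, which share groups and array sets. For Hspa1a these were Tnfsf9, the costimulatory ligand 4-1BBL (r = 0.958), Ppib (0.955), Gpr4 (0.951) and Rab7b (0.950). After group means were removed the same correlations were 0.21, 0.32, 0.52 and 0.27. For Dnajb1 they were Ssr4 (0.971), Atp5d (0.967), Aimp1 (0.962) and Bcl6 (0.954), with 0.72 to 0.78 within groups. For Hspa8 they were Chtf8 (0.955), Rer1 (0.937), Ptges3, an HSP90 cochaperone (0.934), and Tbl1xr1 (0.934), with 0.88 to 0.93 within groups.

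Within groups Hspa1a stood apart from the other chaperones. Its correlation with the other 7 genes over 28 arrays, after group means were removed, was -0.39 to 0.21. Hsp90aa1 correlated at 0.90 with Hspd1, 0.86 with Hspa8 and 0.80 with Dnajb1. Those genes are the ones whose levels followed the array sets or, for Dnajb1, were lowest on the array labelled wild-type vehicle replicate 2.

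Ang II with 2-HOBA was set against Ang II alone. No chaperone gene was called, nor was any of the 10452 tested genes (0.0%), with 379 genes at an unadjusted p under 0.05. Differences of the 8 genes ran from 0.02 for Hspa1a (95% interval -0.62 to 0.65) to 0.32 for Hspe1 (SE 0.26), and none had an unadjusted p under 0.05. All 8 were above 0, where the median of all genes was 0.05, and 2 of the 4 Ang II arrays belong to set 1 while every array with 2-HOBA belongs to set 2. Within set 2, 4 of the 8 turned negative: Hsp90aa1 to -0.18, Hspa8 to -0.07, Hspd1 to -0.10 and Hspe1 to -0.22. B cell markers (median 0.52) and T and NK cell markers (0.17) lay higher in 6 of 6 tested genes each. Neutrophil markers lay lower in 6 of 6 (-0.80) and erythroid markers in 5 of 5 tested genes (-1.01). None of these markers was called, and their part was not tested.

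Ang II was then set against vehicle in wild-type cells. Again no chaperone and no other gene was called (0.0%; 266 genes at an unadjusted p under 0.05, 0 of them chaperones). Hspa1a averaged 5.47 ± 0.42 with Ang II and 5.04 ± 0.55 with vehicle (SD, n = 4 and 7), a difference of 0.43 (95% interval -0.13 to 0.99; limma adjusted p = 1.0). The other 7 genes differed by -0.17 to 0.21. Within sets 1 and 2 the Hspa1a difference was 0.33 and 0.45, while Hsph1 was 0.92 and -0.39 and Hspd1 0.53 and -0.41. With the array labelled wild-type vehicle replicate 2 left out, Hspa1a was at 0.52 and Hspd1 at -0.27. Red pulp macrophage markers and T and NK cell markers lay lower in 6 of 6 tested genes each. Erythroid markers lay higher in 5 of 5 tested genes and neutrophil markers in 6 of 6. None of these markers was called, and their part was not tested.

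2-HOBA with Ang II against vehicle called no gene either (0.0%). The 8 differences ran from 0.02 for Hspd1 to 0.45 for Hspa1a (adjusted p = 0.834). Within set 2 Hspa1a differed by 0.70 (adjusted p = 0.122) and Hspd1 by -0.51 (0.152). With the array labelled wild-type vehicle replicate 2 left out, Hspa1a was at 0.53 (0.684), Hspd1 at -0.23 (0.874) and Hsp90aa1 at -0.08 (0.968). B cell markers lay higher in 6 of 6 tested genes. Neutrophil and red pulp macrophage markers lay lower in 6 of 6 each and erythroid markers in 5 of 5 tested genes. None of these markers was called, and their part was not tested.

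Knockout cells were set against wild-type cells under each treatment. With vehicle, Hspa1a averaged 6.01 ± 0.35 in knockout cells and 5.04 ± 0.55 in wild-type cells (SD, n = 3 and 7), a difference of 0.97 (SE 0.30, unadjusted p = 0.00336 by limma, adjusted p = 0.488). It was higher than the wild-type mean on 3 of 3 knockout arrays, but the groups overlapped. None of the 8 genes was called, as against 0.00957% of all tested genes. With the array labelled wild-type vehicle replicate 2 left out, the Hspa1a difference was 1.05 (adjusted p = 0.0874), and limma's array weights, which count such arrays less, called it (1.03, 0.0354) along with Hspd1 (-0.81, 0.00871). With those weights 13.7% of all tested genes were called.

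All knockout arrays belong to set 1. Within that set Hspa1a differed by 0.63 (adjusted p = 0.380), or by 0.72 (0.493) without the doubtful array. Dnajb1 differed by more than Hspa1a within set 1, by 0.91 against 0.46 over all arrays, with the doubtful array at 3.80. Hsp90aa1 turned to 0.37 within set 1 against -0.21 over all arrays, Hspa8 to 0.19 against -0.23, Hspd1 to 0.26 against -0.44 and Hspe1 to 0.27 against -0.11. None of these passed the test, and with the doubtful array also left out Hsp90aa1 was at -0.01 and Hspd1 at -0.12. Neutrophil markers lay higher in 6 of 6 genes (summed levels 10.66 to 13.26 in knockout and 8.89 to 12.46 in wild-type vehicle cells). T and NK cell markers and red pulp macrophage markers lay lower in 6 of 6 tested genes each. None of these markers was called, and their part was not tested.

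With Ang II, knockout and wild-type cells differed by -0.36 (Hspd1) to 0.07 (Dnajb1), and 0 of 8 genes were called, as against 0.0478% of all tested genes. Hspd1 was 7.73, 7.87, 7.85 and 7.90 in knockout cells and 8.16, 7.94, 8.29 and 8.40 in wild-type cells, without overlap (3.62% of all tested genes had none, in either direction), and its difference of -0.36 had an adjusted p of 0.894 by limma. Within set 1 it was -0.22. Neutrophil markers lay higher in knockout cells in 6 of 6 genes, and B cell and T and NK cell markers lower in 6 of 6 tested genes each. None of these markers was called, and their part was not tested.

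In knockout cells Hspa1a was 5.13 to 5.72 with Ang II and 5.75 to 6.40 with vehicle, without overlap (4.78% of all tested genes had none), a difference of -0.64 (SE 0.34, adjusted p = 1.0 by limma). The other 7 genes differed by -0.40 (Dnajb1) to 0.10 (Dnaja1), and no tested gene was called (0.0%). The Ang II effect on Hspa1a was thus -0.64 in knockout cells and 0.43 in wild-type cells. The difference between these effects was -1.07 (SE 0.43, unadjusted p = 0.0192 by limma, adjusted p = 1.0). No gene was called in that test (0.0%), and the Hspa1a value was -0.97 within set 1 and -1.16 (adjusted p = 0.938) with the array labelled wild-type vehicle replicate 2 left out. The other 7 genes gave -0.39 to 0.17. Between Ang II and vehicle in knockout cells, neutrophil markers lay higher in 6 of 6 genes and erythroid markers in 5 of 5 tested genes. None of these markers was called, and their part was not tested.

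**Figure D5:**
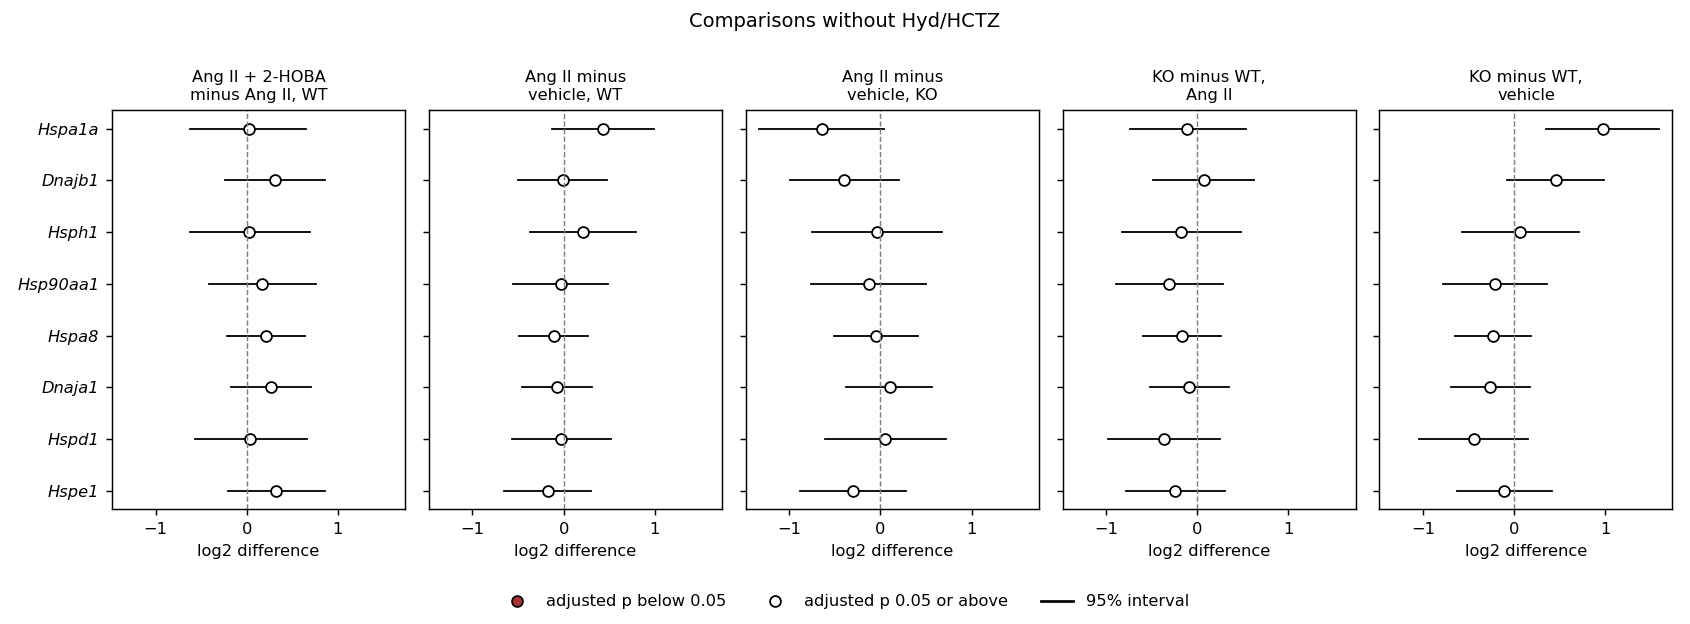
Log2 difference of each gene in the 5 comparisons named above the panels, with limma's 95% interval; no point passed the threshold of 0.05. All intervals include 0 except that of Hspa1a in knockout against wild-type vehicle cells, which lies at 0.97 with an interval of 0.35 to 1.59.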

How the data were processed

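The authors deposited 1 log2 value per probe set and array, made with RMA and Partek 6.6 per the submitters' processing notes. Versions of RMA and of the probe annotation are not given in the sources used here. RMA compresses differences of dim probe sets, so their folds may be understated. No detection calls were used. Precision is limited by how many arrays a group has. The labels give total RNA, Trizol extraction, biotin-labelled cRNA and biological replicates.

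Gene names came from GEO's annotation of the platform, in which 21789 of 35556 probe sets had 1 symbol, 1621 several and 12146 no symbol. RefSeq (GRCm38.p6) held 21698 of the 21789 by Entrez identifier and changed 0 symbols. Means of the 6 groups were estimated in 1 model of all 28 arrays (limma 3.58.1, R 4.3.3), two-sided, with Benjamini-Hochberg adjustment over 10452 genes within a comparison. The 3 Hyd/HCTZ comparisons were tested against the median of all genes' differences, and the others against 0. Errors after ± are SDs, and SE is limma's. The script was tested on simulated data.

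The listed genes are always named, and from each other gene list up to 3 called genes with the smallest p. The 4 genes most like Hspa1a, Dnajb1 and Hspa8 leave out predicted genes, pseudogenes and small RNAs. Members and lists were chosen with earlier results of these data known. Alternatives were no filter or one above 7, quantile normalization, another zero for the test, array weights, fits of the arrays compared, trended and robust eBayes, all probe sets, the replicate number or array set as a block, single array sets, and each array left out. The own-chromosome probe set, set 1 without the doubtful array and gene list counts tested against 0 were added after the data were seen. Samples of the same replicate number did not deviate together in every pair of any comparison, so the numbers were not taken as pairs. No arrays of a group were duplicates, with at least 35538 of 35556 probe sets differing between any 2 arrays of a group. Promoter sequences came from RefSeq (GRCm38.p6).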

Additional observations from a re-analysis of the deposited data

Results flagged for a closer look

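Outlying arrays were looked for in 40 combinations of a gene and a group of 4 to 7 arrays, by the gap from the highest or lowest array to its neighbour, and 4 were found. Chance gives about 1 in 20. Hspa1a was 6.10 on wild-type Ang II replicate 2, while the other 3 arrays had 5.18 to 5.31. Hsp90aa1 was 11.01 on Hyd/HCTZ replicate 5, while the other 5 arrays had 10.39 to 10.59. Hspd1 was 7.73 on 2-HOBA replicate 4, while the other 3 arrays had 8.37 to 8.49. Hspe1 was 8.96 on knockout Ang II replicate 2, while the other 3 arrays had 9.76 to 9.91.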

How the results depend on the processing

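Of 1784 differences of single chaperone genes under other settings, 1726 kept their side of the threshold, 36 passed it newly, 22 no longer passed it and 0 called values turned round. These span 10 comparisons, of which only the 3 with Hyd/HCTZ had called genes in the main fit. Values of the others had no call to lose, so the pooled count says little about how stable the calls are. Counts of called genes moved as follows. Against Ang II (4 of 8 with Hyd/HCTZ) they were 8 with no filter, 2 with a filter above 7 and 8 when tested against 0. Against vehicle (5 of 8) they were 8, 2 and 8 under these settings. Against 2-HOBA (4 of 8) they were 7 with no filter, 2 with the filter above 7 and 7 when only the arrays compared were fitted. The 2 genes called above 7, Hspa1a and Dnajb1, passed that filter only through the Hyd/HCTZ arrays. The median of all genes, which the test uses as its zero, moved with the filter: it was -0.15 with no filter and 0.64 above a level of 7 against Ang II, -0.16 and 0.61 against vehicle, and -0.13 and 0.52 against 2-HOBA. Leaving out each array gave 3 to 5 called genes against Ang II, 5 to 5 against vehicle and 2 to 5 against 2-HOBA, where 2 remained without Hyd/HCTZ replicate 5 or 2-HOBA replicate 4, and 0 in every comparison without Hyd/HCTZ. With array weights 2 of the 8 genes were called between knockout and wild-type vehicle cells, along with 1437 of all 10452 tested genes (13.7%); the cause was not tested.

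Of all genes called in either direction, 48.6%, 48.4% and 52.5% were higher against Ang II, vehicle and 2-HOBA. These shares of the called genes were 77.4%, 76.7% and 78.7% when tested against 0. They were 76.3%, 77.5% and 80.4% with no filter, and 54.1%, 51.9% and 57.9% after quantile normalization. With the replicate number as a block, 2 genes were called against 2-HOBA in place of 4, and the other counts of called chaperones moved by no more than 1.5 times. Same-numbered arrays correlated at -0.349 to 0.366 for Ang II and vehicle in wild-type cells and in no comparison above 0.1 in every pair. The array set could not be fitted as a block for Hyd/HCTZ, which is a set of its own. Levels near 5 are close to the threshold for testing. This limits the folds of Hspa1a, Dnajb1, Hspa2, Hspa13, Hspb11 and Hsf2 against groups outside Hyd/HCTZ. The correlation of Tnfsf9 with Hspa1a is limited too, as the means of Tnfsf9 outside Hyd/HCTZ lay below that threshold.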
